A study of Mus musculus with 8 samples.

Results

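The cell cycle genes described here are 46 mouse genes that act in S phase or in mitosis, out of 32285 genes counted in each library. They were chosen by symbol, by their known roles in the cycle, and not by a measured value, though earlier results of these data were known. All 46 were found among the counted genes, and 20 are called S-phase genes and 24 mitotic genes below. The other members, Hmgb2 and Stmn1, have roles outside the cycle as well and entered neither list. The counts are unique molecular identifiers (UMIs, 1 per captured transcript molecule) of bone marrow T cells, read from transcript 5′ ends.

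The Runx1::Runx1t1 group was made of Runx1Runx1t1/+; Mx1-Cre mice, in which a conditional allele of the leukemia fusion gene is switched on by Cre under the interferon-inducible Mx1 promoter. The control group was made of sex-matched littermates that carried the same Runx1Runx1t1/+ allele without Mx1-Cre, as the methods give it, while the labels call their genotype WT. All mice were C57BL/6, all were injected intraperitoneally with Poly(I:C) to induce Cre (4 doses of 5 mg/kg, every other day), and marrow was taken 4 weeks later. Marrow was pooled from 2 mice at a time, which made 2 pools a group, with a gene expression and a T cell receptor (TCR) library from every pool. Mx1-Cre is not restricted to 1 blood lineage, and only CD3+ cells without mCherry, the marker of fusion expression, were sorted after depletion of non-T cells. The T cells therefore came from marrow in which other cells carried the active fusion, and pools of mice are the replicates of every test.

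A cell enters S phase when cyclin E kinase activity releases E2F factors, which switch on the genes for the replicative helicase (Mcm2 to Mcm7), the sliding clamp Pcna and the enzymes that make deoxynucleotides. Cyclin A and cyclin B with the kinase Cdk1 then carry the cell into mitosis, where Aurora kinases, the chromosomal passenger complex, kinetochore proteins and the anaphase-promoting complex align and separate the chromosomes. Resting T cells keep these genes low, and antigen-driven Cd8 T cells switch them on while a clone expands. Pdcd1 encodes PD-1, an inhibitory receptor that T cells acquire on activation and keep when stimulation persists.

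The 4 gene expression libraries held 56649 barcodes, with 90958101 to 102883449 UMIs each, and 49390 T cells remained after doublets, other cells and cells without evidence of a TCR complex were left out. Of these, 47659 fell into 4 classes by co-receptor UMIs. Cd8 T cells had a Cd8a or Cd8b1 UMI and no Cd4 UMI, and numbered 5945 to 7162 per pool. Cd4 T cells had a Cd4 UMI without Cd8 or Foxp3 UMIs (856 to 1991), Foxp3 T cells had Foxp3 and Cd4 UMIs (216 to 578), and co-receptor-negative T cells had none of these co-receptor UMIs (1845 to 4647). Among Foxp3 T cells, 89.5% to 94.9% had a UMI of Ctla4, 76.1% to 80.6% of Ikzf2 and 37.0% to 46.5% of Il2ra, all typical of regulatory T cells. In Cd4 T cells without Foxp3 these shares were 40.0% to 57.8%, 19.6% to 33.8% and 4.72% to 9.35%. The co-receptor-negative class was mixed, and its makeup differed between the groups. A UMI of Klrb1c (natural killer cell and innate-like T cell receptor) was found in 27.9% and 17.6% of its cells in the Runx1::Runx1t1 pools and 47.7% and 47.5% in the control pools. For Trdc, the delta chain of the TCR, these shares were 14.4% and 14.2% against 24.3% and 23.9%, and for Foxp3 15.5% and 14.04% against 4.02% and 5.04%. Pairs of libraries shared 256 to 306 barcodes, at most 2.10% of the smaller library. Levels are in CPM, the usual scaling of the UMIs of a gene to the summed UMIs of the class in a pool. Nothing in the labels ties the pools to batches, so p-values measure the spread between pools.

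Members of the mitotic list marked a small set of cells. For this count each cell was thinned to 2000 UMIs, and a cell with UMIs of at least 3 of the 24 mitotic genes was called mitotic. In the same way, UMIs of at least 3 of the 20 S-phase genes made an S-phase cell. The name stands for this count of genes only. Some of these genes, such as Pcna at 83.0 CPM, were common in Cd8 T cells without a mitotic UMI. Whether S-phase cells were replicating DNA was not tested. There were 326 mitotic Cd8 T cells, and 64.4% of them were also S-phase cells, against 5.00% of the Cd8 T cells without a mitotic UMI. The mitotic cells of all pools held 41.7% of the UMIs of the mitotic genes. By pool this share was 49.4% and 47.8% in the Runx1::Runx1t1 group, against 20.7% and 27.7% in the control group. The median depth of the mitotic cells before thinning was 14778.5 UMIs, against 7122 in the cells without a mitotic UMI.

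The genes that did not define these cells differed widely in how far they were restricted to them. Pclaf, a Pcna-binding factor, stood at 518 CPM in the mitotic Cd8 T cells and 1.31 CPM in the cells without mitotic UMIs, and 71.9% of its UMIs lay in mitotic cells. Tk1 (thymidine kinase) stood at 138 against 1.29 CPM and Rrm2 (the small subunit of ribonucleotide reductase) at 267 against 2.92 CPM. The helicase subunit Mcm2 stood at 81.3 against 23.4 CPM, Pcna at 273 against 83.0 CPM, and 4.02% and 3.86% of their UMIs lay in mitotic cells. For Tk1 and Rrm2 the shares of UMIs in mitotic cells were 50.3% and 47.2%, so that these cells held far more of the Pclaf, Tk1 and Rrm2 UMIs than of those of Mcm2 and Pcna. Among the mitotic genes themselves, whose UMIs chose the cells, the share of UMIs in mitotic cells ran from 2.36% for Zwint to 81.3% for Ccna2. Most UMIs of Zwint, a kinetochore adaptor, thus lay outside the cells called mitotic, and Top2a was intermediate at 29.9%.

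**Figure D1:**
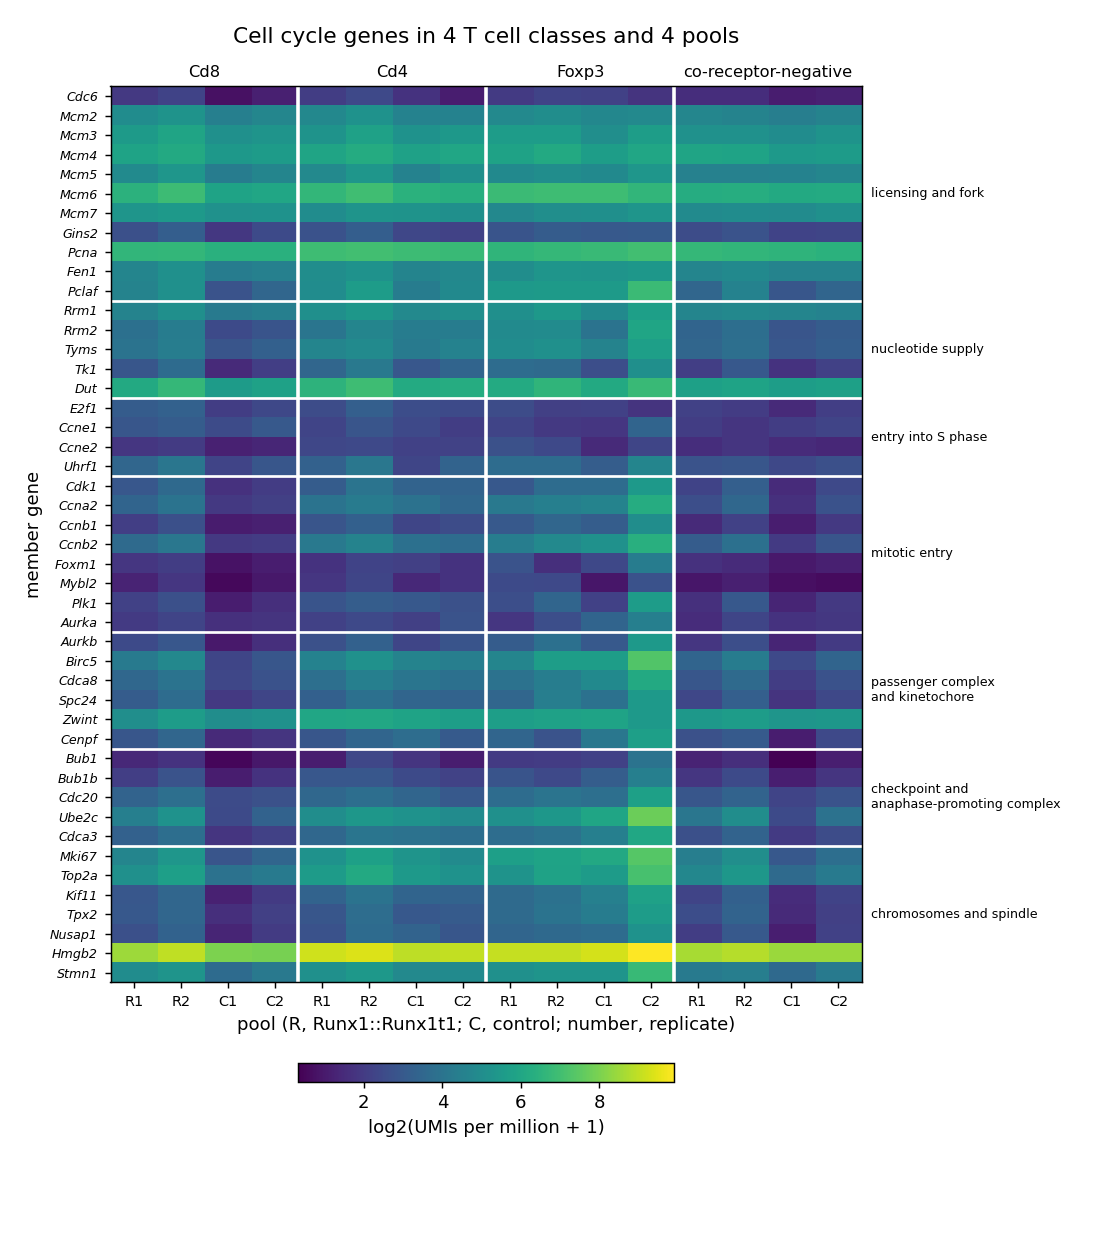
Level of each of the 46 members in the 4 T cell classes and 4 pools, as log2(CPM + 1), on the color scale below the map (R, Runx1::Runx1t1; C, control). Colors are to be compared within a line, since genes differ in length and capture. Control replicate 2 is the brightest pool of the Foxp3 class for most mitotic genes, with Mki67 at 165 CPM.

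In Cd8 T cells, 44 of the 46 members had both Runx1::Runx1t1 pools above both control pools, against 34.3% of all genes tested, and the median log2 difference of the members was 1.31, against -0.01 over all genes. After correction over 13100 genes only Ccnb2, encoding cyclin B2, passed (edgeR quasi-likelihood test, Benjamini-Hochberg adjusted p = 0.0441), so 1 of 46 members rose and none fell. The share called over all genes was 0.0992%, 0.0534% as higher and 0.0458% as lower. At an unadjusted p under 0.05, 43 members were reached, while Zwint, Ccne1 and Mcm7 were not. DESeq2 called 35 members, all higher. The share of all genes that DESeq2 called is not given here, so its counts have no background beside them.

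Mitotic genes differed more between the groups than S-phase genes. Their median log2 difference was 1.58 for the 24 mitotic genes and 0.69 for the 20 S-phase genes. By role, the medians were 0.49 for licensing and fork genes, 1.14 for nucleotide supply and 0.98 for entry into S phase. They were 1.58 for mitotic entry, 1.62 for the passenger complex and kinetochore, 1.52 for the checkpoint and anaphase-promoting complex, and 1.56 for chromosomes and spindle. The contrast between the lists was not tested.

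Among the genes of the replication fork, Pcna was at 97.9 and 101 CPM in the Runx1::Runx1t1 pools and 83.3 and 83.7 CPM in the control pools, a log2 difference of 0.18 (SE 0.07, edgeR adjusted p = 0.197). Pclaf was at 23.2 and 33.9 CPM against 5.79 and 10.3 CPM, a log2 difference of 1.75 (SE 0.28, edgeR adjusted p = 0.0703). Both genes had separate groups, but the gap in Pcna was small beside that in Pclaf, its binding partner. Of the nucleotide enzymes, Tk1 was at 6.47 and 11.9 CPM against 1.77 and 3.26 CPM (log2 difference 1.78, SE 0.38, edgeR adjusted p = 0.0937). Dut, which clears dUTP, was at 68.9 and 104 CPM against 47.5 and 55.1 CPM (log2 difference 0.68, SE 0.17, edgeR adjusted p = 0.118). Uhrf1, which carries DNA methylation through replication, was at 10.3 and 15.8 CPM against 3.90 and 6.38 CPM (log2 difference 1.27, SE 0.28, edgeR adjusted p = 0.101). In each of these, Runx1::Runx1t1 replicate 2 was the highest pool and control replicate 1 the lowest.

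Among the mitotic genes, Ccnb2 was at 11.5 and 16.7 CPM against 2.81 and 3.10 CPM, a log2 difference of 2.18 (SE 0.19). Birc5 (survivin, of the passenger complex) was at 18.3 and 27.1 CPM against 4.02 and 6.42 CPM (log2 difference 2.04, SE 0.26, edgeR adjusted p = 0.0580). Ube2c, the ubiquitin-conjugating enzyme of the anaphase-promoting complex, was at 21.1 and 35.6 CPM against 4.56 and 9.08 CPM (log2 difference 1.97, SE 0.36, edgeR adjusted p = 0.0776). For all 3 the lower Runx1::Runx1t1 pool stood clear of the higher control pool. Mki67, the proliferation marker Ki-67, was at 24.9 and 40.4 CPM against 6.33 and 9.82 CPM (log2 difference 1.93, SE 0.27, edgeR adjusted p = 0.0632). Top2a, topoisomerase II alpha, was at 34.3 and 51.8 CPM against 14.2 and 18.4 CPM (log2 difference 1.32, SE 0.20, edgeR adjusted p = 0.0681). The chromatin protein gene Hmgb2, common in resting cells too, was at 359.9 and 508 CPM against 254 and 244 CPM (log2 difference 0.72, SE 0.14, edgeR adjusted p = 0.0805). Zwint was the exception, at 32.1 and 48.3 CPM against 31.2 and 35.1 CPM, with overlapping groups and a log2 difference of 0.20 (SE 0.17, edgeR adjusted p = 0.510).

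The groups also differed in how many Cd8 T cells were mitotic. The share of mitotic Cd8 T cells was 1.73% (95% Wilson interval 1.45% to 2.08%) and 2.19% (1.87% to 2.56%) in the Runx1::Runx1t1 pools. It was 0.360% (0.236% to 0.550%) and 0.556% (0.404% to 0.765%) in the control pools. The mean number of mitotic UMIs per mitotic cell, at 2000 UMIs a cell, was 9.86 and 10.6 in the Runx1::Runx1t1 pools and 9.33 and 9.95 in the control pools, so that the groups were close in this measure. S-phase cells made up 7.15% and 10.1% against 3.67% and 4.09%. With 2 pools a group an exact permutation test cannot go below p = 0.333, so shares were not tested, and intervals cover counting error only.

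**Figure D2:**
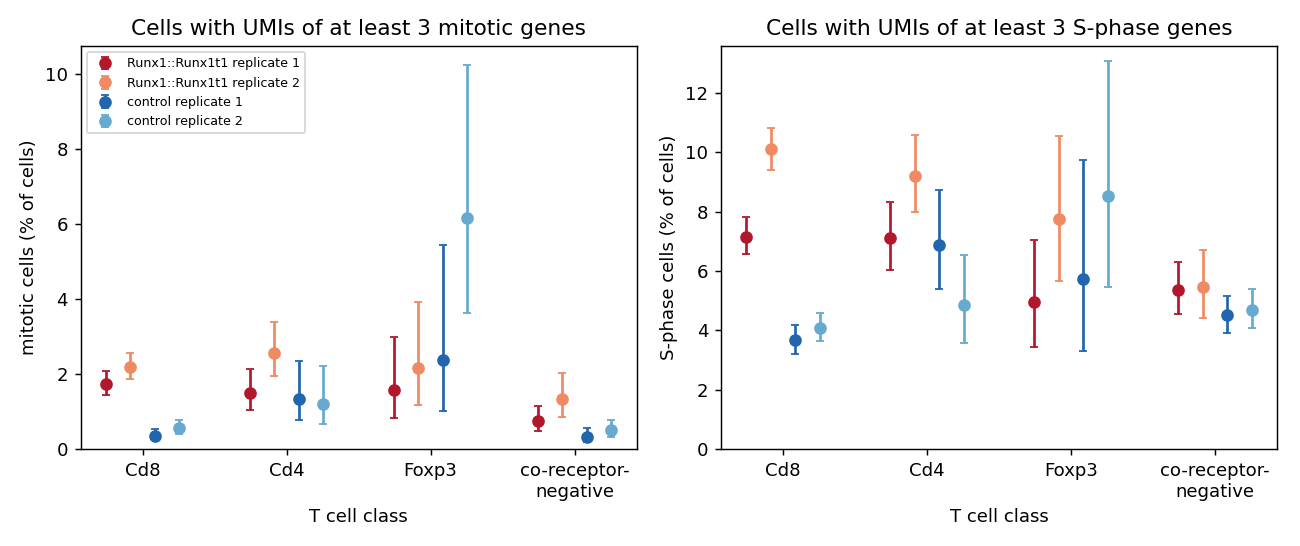
Share of cells with UMIs of at least 3 mitotic genes (left) and at least 3 S-phase genes (right) in each T cell class and pool, in percent of cells thinned to 2000 UMIs. Points are pools and bars are 95% Wilson intervals of counting error. Groups are separate in Cd8 T cells for both lists, and control replicate 2 is highest among Foxp3 T cells with 6.16% mitotic cells.

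For most alternatives, here and in later paragraphs, the share called over all genes is not given, so their counts have no background. The number of members called in Cd8 T cells moved with single choices, while the median stayed above 0. It was 0 without control replicate 1 (median log2 difference 1.02) and without control replicate 2 (1.72), 22 without Runx1::Runx1t1 replicate 2 and 40 without Runx1::Runx1t1 replicate 1, and 27 without the largest clonotype of the series, a Cd8 clone of Runx1::Runx1t1 replicate 2. Of the marker lists of other cells, the progenitor and mast cell list (Kit, Cd34, Gata2, Cpa3) moved with the group. It was at 16.4 and 20.95 CPM against 1.35 and 3.36 CPM in Cd8 T cells, with all 4 genes detected in every pool. Most of this was Cpa3, at 14.5 and 18.4 CPM against 0.0236 and 0.103 CPM. Gata2 was at 0.346 and 0.487 CPM against 0.142 and 0.267 CPM. The groups overlapped in Kit (0.75 and 0.85 CPM against 0.66 and 0.92 CPM) and Cd34 (0.89 and 1.18 CPM against 0.52 and 2.07 CPM). Among mitotic Cd8 T cells thinned to 2000 UMIs, 3.48% and 1.31% had a UMI of this list in the Runx1::Runx1t1 pools, against 3.38% and 4.76% of the cells without mitotic UMIs, and in the control pools 0 of 21 and 3 of 37 mitotic cells had one. Without all cells that held such a UMI, the median log2 difference of the members was 1.34 and Ccnb2 was again called. This left out 11.8% and 14.6% of the Cd8 T cells in the Runx1::Runx1t1 pools, against 0.942% and 2.20% in the control pools. The myeloid list was at 2.41 and 2.91 CPM against 7.47 and 4.24 CPM in Cd8 T cells, and the erythroid list at most 0.733 CPM in any class and pool. The progenitor list moved with the group in the other classes too, at 22.7 to 34.0 CPM against 1.75 to 6.33 CPM. Most of this was again Cpa3, at 20.3 to 29.7 CPM against at most 0.632 CPM. Without the cells that held a UMI of this list, the members' medians were 0.46 in Cd4, -0.91 in Foxp3 and 0.65 in co-receptor-negative T cells.

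Promoter sequences are shown for 5 members, chosen for their motif matches, to let the motifs counted here be seen in place. The cell cycle homology region (CHR, read here as TTTGAA or TTCGAA) and CCAAT boxes are known from promoters of mitotic genes. E2F sites are known from promoters of S-phase genes, and were read as TTTCCCGC, TTTCGCGC, TTTGCCGC or TTTGGCGC. All were searched on both strands in the 250 bases before the start of each gene in RefSeq on GRCm38.p6, where 37 of 46 members had a sequence. No window was found for Mcm4, Gins2, Ccne2, Ccna2, Foxm1, Aurkb, Spc24, Tpx2 and Stmn1. A CHR was present in 8 of 19 mitotic genes (42.1%), 3 of 17 S-phase genes (17.6%) and 17.4% of all 27025 promoters. A CCAAT box was present in 84.2% of mitotic genes, 58.8% of S-phase genes and 34.5% of all promoters, and an E2F motif in 5.26%, 23.5% and 1.91%. Both a CHR and a CCAAT box were present in 8 of 19 mitotic genes (42.1%), 11.8% of S-phase genes and 6.21% of all promoters. None of these shares was tested. A match is a description of letters and not a tested site.

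In the stretches below, read 5′ to 3′ on the strand of the gene, capitals mark matches to any of these motifs on either strand. Ccnb2, the called member in Cd8 T cells, has 1 CHR and 3 CCAAT boxes. Cdk1 and Top2a, both mitotic genes, hold several of each, and Cdk1 also has 1 E2F motif. Mcm5 and Mcm6 are 2 of the 4 S-phase genes with an E2F match, and each stretch begins with a pair of overlapping matches on opposite strands.
Ccnb2, chr9:70421563-70421729, minus strand: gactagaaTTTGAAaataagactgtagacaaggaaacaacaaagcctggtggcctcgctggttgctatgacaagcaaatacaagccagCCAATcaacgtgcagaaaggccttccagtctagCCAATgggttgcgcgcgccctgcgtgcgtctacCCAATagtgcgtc
Cdk1, chr10:69352914-69353128, minus strand: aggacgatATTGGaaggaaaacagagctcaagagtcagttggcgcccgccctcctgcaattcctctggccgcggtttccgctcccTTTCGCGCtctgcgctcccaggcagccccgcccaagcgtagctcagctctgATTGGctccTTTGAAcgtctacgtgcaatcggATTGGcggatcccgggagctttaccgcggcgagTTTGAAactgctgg
Top2a, chr11:99024199-99024424, minus strand: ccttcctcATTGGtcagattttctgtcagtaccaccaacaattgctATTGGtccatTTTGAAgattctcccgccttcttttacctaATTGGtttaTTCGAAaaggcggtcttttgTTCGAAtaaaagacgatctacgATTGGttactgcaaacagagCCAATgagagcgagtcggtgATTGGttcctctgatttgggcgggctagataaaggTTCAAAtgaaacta
Mcm5, chr8:75109348-75109499, plus strand: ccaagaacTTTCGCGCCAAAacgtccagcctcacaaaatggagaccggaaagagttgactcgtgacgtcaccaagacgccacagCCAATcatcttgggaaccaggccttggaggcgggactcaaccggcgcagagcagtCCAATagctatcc
Mcm6, chr1:128359707-128359823, minus strand: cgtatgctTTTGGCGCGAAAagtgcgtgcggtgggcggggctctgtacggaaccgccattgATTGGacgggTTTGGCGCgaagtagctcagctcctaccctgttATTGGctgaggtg

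In Cd4 T cells the same groups were closer. Both Runx1::Runx1t1 pools stood above both control pools for 22 members, against 21% of all genes, and the median log2 difference was 0.44. No member was called by edgeR, where 3.38% of all genes were (2.03% higher and 1.35% lower), 19 members had an unadjusted p under 0.05, and DESeq2 called 1. Mki67 was at 36.0 and 53.0 CPM in the Runx1::Runx1t1 pools and 37.5 and 29.3 CPM in the control pools, so that the groups overlapped. Top2a was at 46.7 and 70.0 CPM against 44.7 and 36.0 CPM. Mitotic cells made up 1.49% and 2.57% against 1.35% and 1.21%, with overlapping counting intervals for Runx1::Runx1t1 replicate 1 and both controls. Without Runx1::Runx1t1 replicate 1, 13 members were called, and without Runx1::Runx1t1 replicate 2 none was and the median was 0.18.

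In Foxp3 T cells, the regulatory class, the mitotic members pointed the other way. In 18 of the 40 members tested both Runx1::Runx1t1 pools stood below both control pools, against 23.3% of all genes below, and none had both above. The median log2 difference was -1.39 for mitotic genes and -0.16 for S-phase genes. No member was called by edgeR, where 0.491% of all genes were (0.438% higher and 0.0534% lower). Of the 40, 22 had an unadjusted p under 0.05, and DESeq2 called 1 as lower.

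These values rested on 1 control pool. Ube2c was at 34.6 and 41.4 CPM in the Runx1::Runx1t1 pools, and at 61.2 and 213 CPM in control replicates 1 and 2. Birc5 was at 24.6 and 50.03 CPM against 49.8 and 157 CPM. Mki67 was at 52.3 and 58.7 CPM against 68.2 and 165 CPM. In each, control replicate 2 was far above the other 3 pools. In control replicate 2, 13 of 211 Foxp3 T cells were mitotic (6.16%, 95% Wilson interval 3.64% to 10.3%), and these held 20.5 mitotic UMIs each and 83.9% of the mitotic UMIs of the class. The other shares were 1.59% and 2.16% in the Runx1::Runx1t1 pools and 2.38% in control replicate 1. Without control replicate 2, the median log2 difference over the members was -0.02 and none was called, and without control replicate 1 it was -1.51 and 27 members were called as lower.

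In co-receptor-negative T cells 3 of 46 members rose and none fell, while 9.49% of all genes were called (5.83% higher and 3.66% lower). The members were thus called as higher about as often as all genes. Mki67, at 20.6 and 32.2 CPM against 6.92 and 12.8 CPM, rose by 1.32 on the log2 scale (SE 0.28, edgeR adjusted p = 0.0225). Top2a, at 26.5 and 40.7 CPM against 11.4 and 18.5 CPM, rose by 1.07 (SE 0.24, edgeR adjusted p = 0.0283). Mcm4, a helicase subunit, was at 59.0 and 57.9 CPM against 45.1 and 46.4 CPM and rose by 0.28 (SE 0.07, edgeR adjusted p = 0.0419). The groups did not overlap in any of the 3, and did not in 32 members in all, 30 of them higher in the Runx1::Runx1t1 group (39.1% of all genes) and 2 lower (18.4%). The median log2 difference was 0.90 for mitotic and 0.19 for S-phase genes, and mitotic cells made up 0.747% and 1.33% against 0.332% and 0.516%.

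The groups differed in the makeup of this class (Klrb1c, Trdc and Foxp3 shares above), and the part of this in the result was not tested. The call also depended on which cells were counted as T cells. Cells with UMIs of at least 2 markers of B, myeloid, erythroid or progenitor cells had been left out, and of those left out 6.80% and 6.58% were mitotic in the Runx1::Runx1t1 pools, against 23.0% and 25.0% in the control pools. With the CD3-positive among them kept, the median of the members was -0.05 and 1 member, Mcm5, was called, as lower. With only cells that had a paired TCR the median was 0.28 and Mcm4 was called. Leaving out 1 pool gave 2 to 18 called members, the most without control replicate 2 and 15 without Runx1::Runx1t1 replicate 1.

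**Figure D3:**
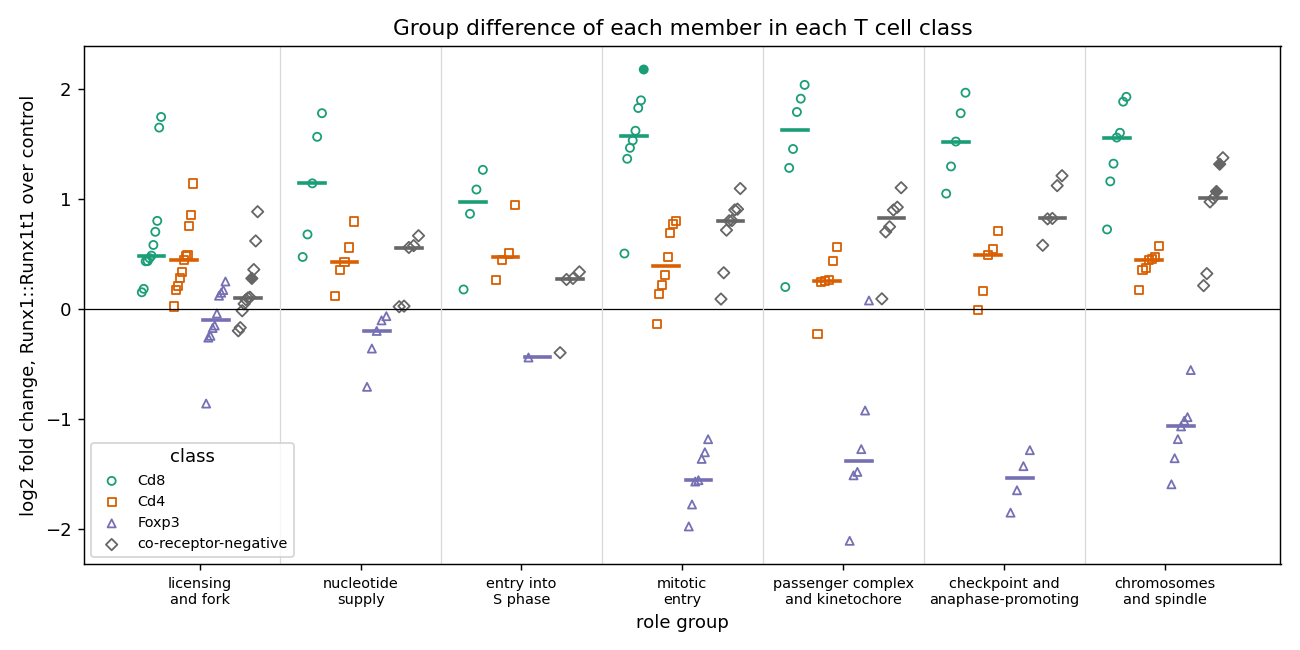
Log2 fold change of each tested member between Runx1::Runx1t1 and control pools, by role group (x axis) and T cell class (symbols), from edgeR on summed UMIs. Bars are medians, filled symbols passed a Benjamini-Hochberg adjusted p of 0.05. The mitotic genes have a median of 1.58 in Cd8 T cells and -1.39 in Foxp3 T cells, the latter resting on control replicate 2.

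The differences between classes were tested directly, as an interaction with the pool as a block. The group difference was lower in Foxp3 than in Cd8 T cells for 28 members and higher for none (median -2.19 on the log2 scale), where 1.56% of all genes were called (0.494% higher and 1.06% lower). Without control replicate 2, 15 members were called. Birc5 had an interaction of -3.42 (SE 0.28, edgeR adjusted p = 3.65e-05) and Mki67 of -2.88 (SE 0.23, edgeR adjusted p = 3.26e-05). Between Cd4 and Cd8 T cells, 5 members were called as lower in Cd4, where 0.258% of all genes were (0.0725% higher and 0.185% lower), namely Ccnb2, Birc5, Cdca3, Pclaf and Rrm2. Between co-receptor-negative and Cd8 T cells, Mcm6, Rrm2 and Stmn1 were called as lower, where 0.911% of all genes were (0.566% higher and 0.346% lower). Across the alternatives these counts ran from 0 to 20 and from 0 to 22, and both were 0 without control replicate 1 and without control replicate 2. They were 18 and 22 without Runx1::Runx1t1 replicate 1, and 17 and 19 without Runx1::Runx1t1 replicate 2.

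Compared within pools, without regard to group, Cd8 T cells had 4 members higher and 17 lower than Cd4 T cells, where 39% of all genes were called (18.4% higher and 20.5% lower). Those higher were the helicase subunits Mcm2, Mcm3 and Mcm7 and cyclin E1, while other genes of the same roles, Pcna, Pclaf and Ccne2, were lower. Mcm2 was at 30.6, 37.3, 20.9 and 25.1 CPM in Cd8 T cells of Runx1::Runx1t1 replicates 1 and 2 and control replicates 1 and 2, against 26.7, 36.0, 22.8 and 23.0 CPM in Cd4 T cells, and rose by 0.31 (SE 0.06, edgeR adjusted p = 0.0056). Libraries were scaled by the trimmed mean of M-values (TMM), which sets the bulk of genes near no change, and with scaling to totals of UMIs alone the difference was 0.07 (SE 0.07, edgeR adjusted p = 0.440). Mcm7 rose by 0.39 (SE 0.06, edgeR adjusted p = 0.00172) and Mcm3 by 0.31 (SE 0.07, edgeR adjusted p = 0.0103), and neither was called with totals of UMIs (0.15 and 0.06). Ccne1 rose by 0.76 (SE 0.17, edgeR adjusted p = 0.0104). With totals of UMIs the median of all genes was -0.26 instead of -0.01, 996 genes were higher and 6037 lower instead of 2291 and 2551, and 1 member was higher (Ccne1) and 30 lower. The members lower in Cd8 T cells included Tyms, thymidylate synthase, which fell by 0.74 (SE 0.15, edgeR adjusted p = 0.00488), Ccnb1 by 0.97 (SE 0.23, edgeR adjusted p = 0.0113) and Hmgb2 by 0.53 (SE 0.08, edgeR adjusted p = 0.00144). Cd4 T cells were shallower, at 4590 to 5563.5 median UMIs against 6778 to 7571.5. With the classes gated at 2000 UMIs a cell, 10 of the 21 kept their call, namely Mcm2, Mcm3, Mcm7, Ccne1, Tyms, Ccne2, Ccnb1, Zwint, Top2a and Hmgb2. Without control replicate 1 11 members were called, and without control replicate 2 8 were.

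Foxp3 T cells had 2 members higher than Cd4 T cells, where 21.5% of all genes were called (11.8% higher and 9.72% lower). Members were thus called as higher less often than all genes. The 2 members were Aurkb, the kinase of the passenger complex, with a rise of 1.16 (SE 0.36, edgeR adjusted p = 0.0438), and the spindle factor Tpx2, with a rise of 1.20 (SE 0.33, edgeR adjusted p = 0.0259). Tpx2 was at 11.6, 14.8, 19.2 and 48.5 CPM in Foxp3 T cells against 6.40, 12.3, 6.75 and 7.44 CPM in Cd4 T cells of the same pools. Every Foxp3 value exceeded its Cd4 partner, and control replicate 2 gave the widest gap. The count was 13 without Runx1::Runx1t1 replicate 2, 4 without Runx1::Runx1t1 replicate 1, 1 without control replicate 1, 22 without the filter on low counts and 6 with totals of UMIs.

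Co-receptor-negative T cells had 11 members lower than Cd8 T cells and none higher, where 28.9% of all genes were called (16% higher and 12.9% lower). The helicase subunits Mcm2, Mcm3, Mcm4 and Mcm7 fell by 0.22 to 0.48. E2f1 fell by 1.09 (SE 0.19, edgeR adjusted p = 0.00674) and Ccne1 by 1.11 (SE 0.16, edgeR adjusted p = 0.00372), both of the role group for entry into S phase. Tyms, Top2a, Cdca8, Cdc20 and Stmn1 also fell. With the other cells kept 1 member was called, and without Runx1::Runx1t1 replicate 1 4 were. With gates at 2000 UMIs 6 were called and the median of all members was 0.11 instead of -0.34. With totals of UMIs the median of all genes was 0.16, with 4653 genes higher and 682 lower instead of 2032 and 1645, and among the members Ccne1, E2f1, Mcm7 and Top2a were lower and Zwint was higher.

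Cd8 T cells with a Pdcd1 UMI were 604 and 2163 in the Runx1::Runx1t1 pools and 111 and 117 in the control pools. Compared with the Cd8 T cells without one in the same pool, 27 members rose and none fell, where 24.8% of all genes were called (12% higher and 12.8% lower), and the median log2 difference was 1.17. Mki67 was at 58.2, 69.0, 40.0 and 59.0 CPM in cells with a Pdcd1 UMI, against 22.3, 30.3, 5.62 and 9.01 CPM in cells without. It was higher in 4 of 4 pools and rose by 1.53 (SE 0.28, edgeR adjusted p = 0.00714). Dut rose by 0.85 (SE 0.07, edgeR adjusted p = 0.000445), Tk1 by 1.94 (SE 0.33, edgeR adjusted p = 0.00575) and Top2a by 1.40 (SE 0.22, edgeR adjusted p = 0.00427). All 5 genes of nucleotide supply and all 7 of chromosomes and spindle were called, but none of the 4 for entry into S phase. Without Runx1::Runx1t1 replicate 1 15 members were called, and without control replicate 1 16 were. With totals of UMIs the median of all genes was 0.26, with 3939 genes higher and 854 lower instead of 1447 and 1548, and 39 members were higher.

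Cells with a Pdcd1 UMI had median depths of 5101 to 6322 UMIs, below the 6782 to 7799 UMIs of the cells without one, while mitotic cells were deeper than the rest. The part of depth in these calls was not tested. In a further setting the Pdcd1 gate and the co-receptor gates of the class were both set on 2000 UMIs of each cell, and shallower cells were left out. Cells whose Pdcd1 UMIs were lost in thinning then counted as cells without one. With these gates 7 members rose and 2 fell, and the median was 0.13. The 7, all called under both gates, were Mcm6, Fen1, Dut, Zwint, Mki67, Top2a and Hmgb2, with Mki67 at 0.52 (SE 0.18, edgeR adjusted p = 0.0442) and Dut at 0.55 (SE 0.11, edgeR adjusted p = 0.00123). The 2 that fell were Mcm2 and Mcm7. Pclaf had a log2 difference of 0.06 (SE 0.22) and Birc5 of 0.12 (SE 0.21) there, against 1.98 and 1.65 with all UMIs. Of the 27 calls, 7 were thus shared by the gates.

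**Figure D4:**
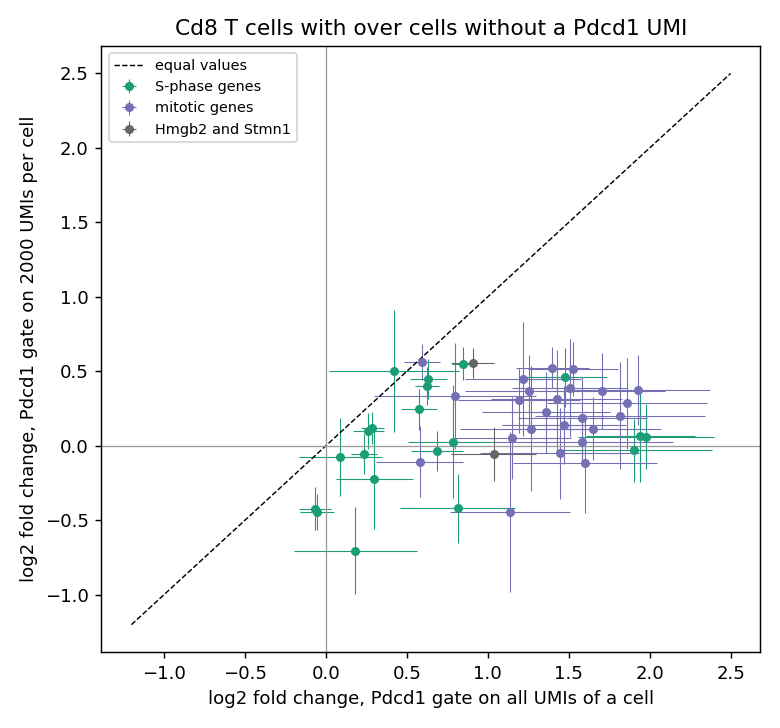
Log2 fold change of each member between Cd8 T cells with and without a Pdcd1 UMI. The gates for Pdcd1 and for the Cd8 class were on all UMIs of a cell (x axis) or on 2000 UMIs of each cell (y axis). Points are genes, bars are standard errors and the dashed line marks equal values. The median of the members is 1.17 on the x axis and 0.13 on the y axis, and Mki67 lies at 1.53 and 0.52.

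Shares of S-phase and mitotic cells were also counted by the number of Pdcd1 UMIs at 2000 UMIs a cell. The S-phase share in the Runx1::Runx1t1 pools was 6.79% and 9.43% among cells with no Pdcd1 UMI, 14.2% and 13.9% of those with 1, and 15.2% and 12.2% of those with 2 or more. In the control pools they made up 3.67% and 4.07% with none and 5.00% and 7.69% with 1, which are 2 of 40 and 3 of 39 cells with 95% Wilson intervals (1.38% to 16.5% and 2.65% to 20.3%) that include the shares with none. In both Runx1::Runx1t1 pools the S-phase share was thus higher with 1 Pdcd1 UMI than with none, beyond counting error. Mitotic cells made up 1.64% and 2.28% with none, 4.27% and 1.95% with 1, and 2.02% and 1.44% with 2 or more in the Runx1::Runx1t1 pools, so that the pools went opposite ways. In the control pools 0 of 40 and 0 of 39 cells with 1 Pdcd1 UMI were mitotic, which allows shares of up to 7.50% and 7.69% (3 counts), and the shares with none were 0.363% and 0.560%. Within cells without a Pdcd1 UMI the Runx1::Runx1t1 pools therefore still had the higher mitotic shares.

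The difference between cells with and without a Pdcd1 UMI was smaller in the Runx1::Runx1t1 group for 11 members and larger for none, where 2.66% of all genes were called (0.869% higher and 1.79% lower). Rrm2 was at 29.4 and 32.1 CPM with a Pdcd1 UMI and 12.2 and 15.2 CPM without in the Runx1::Runx1t1 pools. It was at 51.4 and 61.5 CPM with and 3.55 and 5.09 CPM without in the control pools, an interaction of -2.55 (SE 0.23, edgeR adjusted p = 0.00301). With the gates at 2000 UMIs none of the 11 was called, and the median interaction was 0.39 instead of -1.29. In the shares at this depth, 40 and 39 control cells had 1 Pdcd1 UMI and 5 in each pool had more, none of them mitotic. Standard errors were wide (Ccna2 at 9.48, SE 4.61, Tk1 at 8.96, SE 6.74), so this fit cannot decide whether the interaction was present. With the gates on all UMIs the calls depended on control replicate 2, and the median ran from -1.48 to -0.783 over the pools left out. Without control replicate 1 2 were called, and without Runx1::Runx1t1 replicate 1 24 members were.

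Clonotypes, defined by both CDR3 sequences in the TCR libraries, gave a measure that uses no member. Cd8 T cells of clonotypes with 5 or more cells in the pool numbered 1006, 2204, 136 and 375, and those of clonotypes with 1 cell 4118, 3066, 4322 and 4704. In the expanded cells 8 members rose and 2 fell, where 25.3% of all genes were called (12.1% higher and 13.2% lower). Mki67 was at 59.1, 49.3, 14.5 and 16.05 CPM in expanded and 17.7, 26.4, 4.64 and 9.85 CPM in single cells, higher in 4 of 4 pools, and rose by 0.92 (SE 0.19, edgeR adjusted p = 0.0164). Hmgb2, at 733, 778, 542 and 383 CPM against 286, 343, 239.9 and 234 CPM, rose by 0.82 (SE 0.10, edgeR adjusted p = 0.00306). Zwint rose by 0.74 (SE 0.12, edgeR adjusted p = 0.00631), Top2a by 0.78 (SE 0.14, edgeR adjusted p = 0.00897) and Cdk1 by 1.02 (SE 0.23, edgeR adjusted p = 0.0202). Mcm6, Rrm1 and Dut rose by 0.43 to 0.58. Mcm7 fell by 0.53 (SE 0.11, edgeR adjusted p = 0.0173), and E2f1 fell by 0.84 (SE 0.23, edgeR adjusted p = 0.0388). With totals of UMIs the median of all genes was 0.29, with 4156 genes higher and 909 lower instead of 1419 and 1556, 22 members were higher and none lower, and Mcm7 and E2f1 were at -0.24 and -0.54 without being called.

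Mitotic shares were highest in clones of 5 to 19 cells in the Runx1::Runx1t1 pools. They were 1.34% and 1.74% at 1 cell, 3.23% and 4.85% at 2 to 4 cells, 4.60% and 4.89% at 5 to 19 cells and 2.49% and 1.51% at 20 or more. In the control pools they were 0.209% and 0.597% at 1 cell, 1.27% and 0.474% at 2 to 4, and 1.48% and 0.709% at 5 to 19, and control replicate 2 had 1.11% (1 of 90 cells) at 20 or more. The control bins above 1 cell held 1 to 3 mitotic cells each. Intervals of neighbouring bins overlapped above 1 cell, except from 5 to 19 to 20 or more in Runx1::Runx1t1 replicate 2. There the largest clonotype, with 1092 cells in that pool, held 7 mitotic cells of 1072 (0.653%, 95% Wilson interval 0.317% to 1.34%) but 13.0% S-phase cells, and the share of the other clones of 20 or more was 2.58%.

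**Figure D5:**
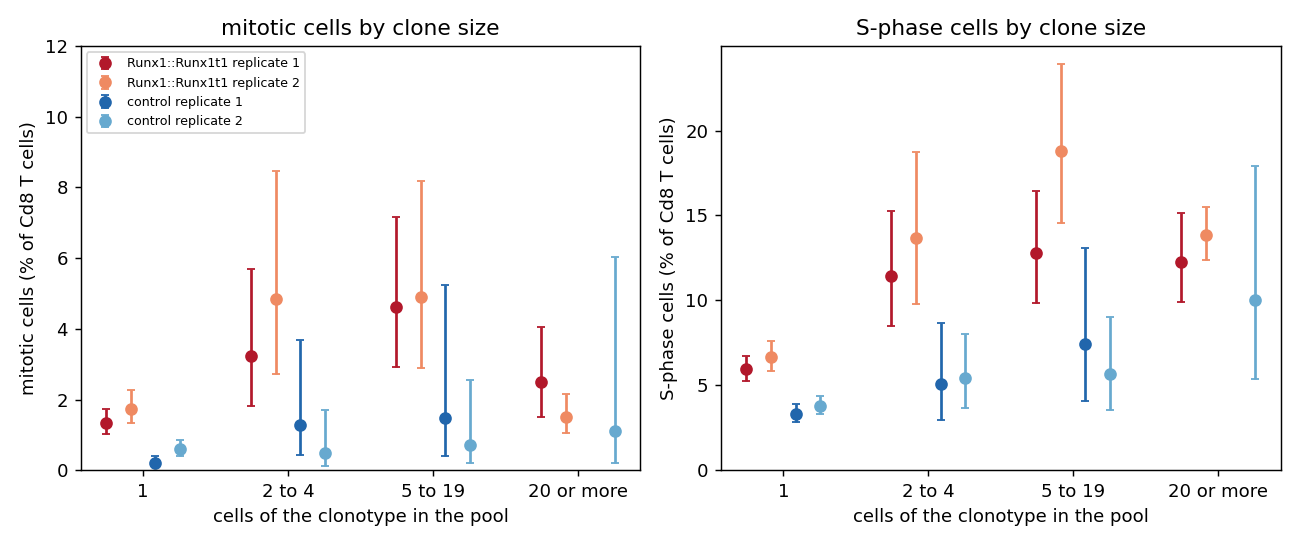
Share of mitotic (left) and S-phase (right) Cd8 T cells by the number of cells of the clonotype in the pool, in percent of cells thinned to 2000 UMIs. Points are pools and bars are 95% Wilson intervals of counting error. Clonotypes of 1 cell have the lowest S-phase share in each pool, at 5.94% and 6.66% in the Runx1::Runx1t1 pools.

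The mitotic cells were spread over many clonotypes. The 99 and 106 mitotic Cd8 T cells with a clonotype in the Runx1::Runx1t1 pools belonged to 87 and 85 clonotypes, with at most 4 and 7 in 1 clonotype, and the 14 and 33 in the control pools to 14 and 33. Without the largest clonotype, 19 members rose and 1 fell with clone size. Without Runx1::Runx1t1 replicate 1, 1 rose and 1 fell. No member was called for a different effect of clone size in the groups, where edgeR called 0.0085% of all genes, 2 members had an unadjusted p under 0.05 and DESeq2 called 0.

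Of 74 other genes of the cycle, none was called between the groups in Cd8 T cells by edgeR, 50 had an unadjusted p under 0.05, DESeq2 called 26, and their median log2 difference was 0.56. The 25 further mitosis genes had a median of 1.08 with 22 under an unadjusted 0.05, and the 21 further replication genes a median of 0.57 with 16. The 6 quiescence genes, which restrain division in resting T cells, had a median of -0.03 with 1. In Cd4 T cells, Cdk6, Cdkn2c, Tfdp1 and Rpa2 rose and Ccnd1 and Foxp1 fell, of 72 tested, where 3.38% of all genes were called. Cdk6, a kinase of the G1 phase, rose by 1.39 (SE 0.11, edgeR adjusted p = 0.0017), and Ccnd1, its cyclin partner, fell by 3.02 (SE 0.53, edgeR adjusted p = 0.0279). In co-receptor-negative T cells 7 of 72 rose and 1 fell, near the 9.49% called over all genes (5.83% higher and 3.66% lower). Among them was Cenpa, the centromeric histone, with a rise of 0.61 (SE 0.10, edgeR adjusted p = 0.0088). In Foxp3 T cells none was called by edgeR, 20 of 60 tested had an unadjusted p under 0.05, and DESeq2 called 1. These genes were named for having been called, after their values were seen.

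With a Pdcd1 UMI, 27 of the 73 other genes tested rose and 7 fell, where 12% of all genes were called higher and 12.8% lower. With clone size 14 of 73 rose and 3 fell, where 12.1% of all genes were higher and 13.2% lower. Falls were thus less common among these genes than over all genes. Values under thinned gates or totals of UMIs are not given for these genes. Of the 6 quiescence factors, Klf2, Foxp1 and Tob1 fell in both, and Slfn2 rose with clone size. Klf2 fell by 1.95 with Pdcd1 (SE 0.29, edgeR adjusted p = 0.0031) and by 2.17 with clone size (SE 0.42, edgeR adjusted p = 0.0124). Of the 7 kinase inhibitors, Cdkn2a, Cdkn2b and Cdkn2c rose in both, and Cdkn1c and Cdkn2d fell with Pdcd1. Cdkn2a, which blocks the G1 kinases, rose by 3.13 (SE 0.34, edgeR adjusted p = 0.0009) with Pdcd1 and by 3.64 (SE 0.31, edgeR adjusted p = 0.0012) with clone size.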

How the data were processed

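UMI counts per gene and cell and TCR contigs were deposited by the authors, who made them with Cell Ranger 6.1.2 on GRCm38 and did not normalize the counts. The annotation release is not given in the sources used here. Cells under 200 genes or above 15% mitochondrial UMIs were dropped. Doublets were called with Scrublet in scanpy 1.11.5, and where its automatic threshold marked under 0.5% of cells the top 5% of scores were removed (4.22% to 5.40% per library). Cells with UMIs of at least 2 markers of other lineages were left out. Raw counts were summed per pool and class and tested with edgeR 4.0.16 (quasi-likelihood, TMM, filterByExpr, Benjamini-Hochberg over all genes tested, threshold 0.05) in R 4.3.3, with pool as a block between cells of the same pool. DESeq2 1.42.0 was an alternative. Fits were tested on simulated data. Thinning of cells to 2000 UMIs left out 2204 shallower cells. Values per pool are printed for 12 members, namely the member of highest mean CPM and that of largest log2 group difference in Cd8 T cells of each role, with Mki67 and Top2a. Further genes are named because they were called. The members and lists were chosen with earlier results of these data known. Runx1t1 UMIs were counted but not used to check the groups, since 5′ reads were taken not to reach the fused part and sorted cells lack mCherry. This reason was not tested. Cells with a Runx1t1 UMI were rare. For the Cd8 class their shares were 0.31% and 0.49% with the fusion allele active in marrow, against 0.12% and 0.15% for control. Co-receptor-negative shares were also separate (0.27% and 0.49% against 0.043% and 0.21%), while Cd4 and Foxp3 shares overlapped. The source of these UMIs was not tested.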

Additional observations from a re-analysis of the deposited data

Results flagged for a closer look

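The effect of a Pdcd1 UMI differed between the groups for 11 members by an interaction test, but the calls depended on single control pools. With the gates at 2000 UMIs none was called, but the control pools then held too few cells with a Pdcd1 UMI for that fit to decide. The group difference itself differed by interaction tests between Foxp3 and Cd8 T cells for 28 members (15 without control replicate 2 or with the gates at 2000 UMIs), between Cd4 and Cd8 T cells for 5, and between co-receptor-negative and Cd8 T cells for 3. The last counts, 5 and 3, were both 0 without control replicate 1 and without control replicate 2.

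Some shares in cells outside the comparisons were higher in both Runx1::Runx1t1 pools. Among T cells with UMIs of both co-receptors, 10.1% and 14.9% were S-phase cells in the Runx1::Runx1t1 pools, above the 3.68% and 7.39% of the control pools. The mitotic shares of these cells overlapped, at 4.77% and 3.90% against 1.58% and 4.43%. Among removed doublets, 1.08% and 1.06% were mitotic against 0.142% and 0.659%, and 5.95% and 8.30% were S-phase cells against 3.26% and 5.01%. These shares were not tested.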

How the results depend on the processing

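Leaving out 1 pool gave 0 to 40 called members between the groups in Cd8 T cells, 0 to 13 in Cd4, 0 to 27 in Foxp3 and 2 to 18 in co-receptor-negative T cells. It gave 8 to 26 for Cd8 against Cd4, 1 to 13 for Foxp3 against Cd4, 4 to 13 for co-receptor-negative against Cd8, 15 to 29 for Pdcd1, 2 to 12 for clone size, 0 to 24 for Pdcd1 by group and 0 to 1 for clone size by group. The differences of group differences from Cd8 gave 15 to 31 for Foxp3, 0 to 18 for Cd4 and 0 to 22 for co-receptor-negative T cells. The cause of these changes was not tested. For most alternatives here and below the share called over all genes is not printed, so their counts have no background beside them. Settings on gates at 2000 UMIs, progenitor UMIs and totals of UMIs, and the differences of group differences, were chosen after seeing the data.

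In Cd8 T cells the group count was 35 with DESeq2, 39 with no filter, 0 with other cells kept or with 2 Cd8 UMIs required, 27 without the largest clonotype, 26 with 1 cell per clonotype and 3 with thinned gates. In Cd4 T cells it was 1 with DESeq2, 12 with no filter and 2 with thinned gates, and in Foxp3 T cells 1 with DESeq2. In co-receptor-negative T cells it was 1 with DESeq2, with other cells kept and with paired TCR only, 20 with no filter and 13 with thinned gates. Foxp3 against Cd4 gave 22 with no filter, 5 with 1 cell per clonotype and 7 with thinned gates. Cd8 against Cd4 gave 10 and co-receptor-negative against Cd8 gave 6 with thinned gates, and the latter 1 with other cells kept. Pdcd1 gave 9 with thinned gates, and clone size 20 without the largest clonotype. Pdcd1 by group gave 25 with no filter, 5 with other cells kept, 17 without the largest clonotype and 0 with thinned gates, and clone size by group 2 with no filter. The Foxp3 minus Cd8 difference gave 15 with thinned gates. Cd4 minus Cd8 gave 9 with DESeq2, 20 with no filter, 1 with no doublet removal, 2 with other cells kept, 12 without the largest clonotype and 3 with thinned gates. Co-receptor-negative minus Cd8 gave 6 with DESeq2, 19 with no filter or without the largest clonotype, 13 with other cells kept and 20 with 1 cell per clonotype. With totals of UMIs in place of TMM, 5 were called between the groups in co-receptor-negative T cells, 6 for Foxp3 against Cd4, 5 for co-receptor-negative against Cd8, 22 for clone size and 31 for Cd8 against Cd4.

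Same-numbered pools deviated together (correlations 0.261 to 0.388). The labels give no batch, so whether same-numbered pools shared one cannot be told, and the main fits between the groups used no replicate block. With the replicate block, 40 members were called in Cd8, 2 in Cd4, 7 in Foxp3 and 24 in co-receptor-negative T cells. The counts of called members thus depended on this choice. The shares called over all genes with the block are not given here, so whether the members differed from other genes in this cannot be read from them.

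Differences of shares, in percentage points, followed depth and the number of genes required. For mitotic cells they were 1.0013 at 1000 UMIs, 4.46 unthinned and 2.67 at 2 genes in Cd8, 3.35 unthinned and 1.53 at 2 genes in Cd4, and 1.24 unthinned and 1.43 at 2 genes in co-receptor-negative T cells. For S-phase cells they were 1.71, 13.3 and 8.02 in Cd8 and 0.820, 12.5 and 4.77 in Cd4 under the same 3 settings. In co-receptor-negative T cells they were 0.644 at 1000 UMIs, 2.16 at 2 genes and 0.397 with 1 cell per clonotype, and reversed to -2.11 unthinned. In Foxp3 T cells the S-phase difference was -3.43 at 2 genes and reversed to 3.57 unthinned, with -2.18 to 0.639 over the pools left out, 0.636 without Runx1::Runx1t1 replicate 1 and 0.639 without control replicate 2. Leaving out 1 pool moved the mitotic difference from 1.27 to 1.73 in Cd8. The log2 group difference of Zwint in Cd8 T cells ran from -0.0556 to 0.43 over the pools left out, and was below 0 without Runx1::Runx1t1 replicate 2.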
